A study of Homo sapiens with 12 samples.

Results

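The BCL2 family decides at the outer mitochondrial membrane whether a stressed cell survives. Its anti-apoptotic members (BCL2, MCL1, BCL2L1 and BCL2A1) bind and restrain the effectors BAX and BAK1, which otherwise form pores in that membrane and release cytochrome c to activate caspases. The BH3-only proteins (BID, BCL2L11, PMAIP1 and BBC3, known as BID, BIM, NOXA and PUMA) report damage, by occupying the anti-apoptotic members or by activating the effectors. Plasma cells and myeloma cells are known to lean on MCL1 in particular, and proteasome inhibitors are known to induce PMAIP1.

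These 10 genes were followed in KMS-11 and KMS-34, human multiple myeloma lines that are both t(4;14)-positive, and in their carfilzomib-resistant derivatives KMS-11/Cfz and KMS-34/Cfz. Carfilzomib is an irreversible proteasome inhibitor. The derivatives had adapted stepwise to 12 nM of it and had grown for 1 week without the drug, and the parental cells had never been selected. RNA of 3 replicates of each culture was measured on 12 Affymetrix human genome arrays. All 4 groups were grown in the same medium, with 4% serum in the sample labels and 10% in the methods. Each derivative is 1 selected culture of its line, and nothing states that the replicates are separate selections or cultures, so the p-values measure a spread between samples that may be technical.

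The members were found through the gene names given to the probe sets. Of 54613 probe sets, 30 name a member alone. MCL1 has 6 of them, BCL2L11 7, BCL2 and BCL2L1 4 each, BID 3, BAX and PMAIP1 2 each, and BCL2A1 and BAK1 1 each. The 1 probe set for BBC3 also names 2 microRNA genes, so no value is given for BBC3. The other 9 genes were measured among 19775 genes, the value of a gene being the mean of its own probe sets. All values are log2 values that were centred for each probe set, so they hold differences between arrays and no expression level. For this reason genes cannot be compared in abundance, and plasma cell markers cannot be checked for their level. In what follows a single array is given as its log2 difference from the mean of the 3 parental arrays of its line, unless another base is named. The words rose and fell are used for an adjusted p under 0.05 in limma, adjusted over all 19775 genes or, for single probe sets, over all probe sets.

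One array stands apart. KMS-34/Cfz replicate 1 correlated with the other arrays of its group at 0.759 and 0.811 over all probe sets, and with KMS-34 replicate 1 at 0.83. Within the remaining groups, correlations lay between 0.859 and 0.949. The label of KMS-34/Cfz replicate 1 is therefore in doubt, although these correlations alone do not show an exchange. With the arrays of the KMS-11 line it correlated between -0.226 and -0.124. In deviations from their group means, it and KMS-34 replicate 1 correlated at 0.52. Whether it shared a batch with KMS-34 replicate 1 or was exchanged with another sample was not tested, and either would bear on every value of KMS-34/Cfz below, which takes the label as given. Member values in KMS-34/Cfz are given also without this array where that changes a call or the sign, or clearly moves the value.

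Resistance in KMS-34 went with a rise of PMAIP1, and with no other change of a whole gene that passed the test. Over all genes, 10.1% passed it in KMS-34/Cfz and 3.57% in KMS-11/Cfz. Of the 9 member genes, 1 rose and 0 fell in KMS-34/Cfz, where 5.4% of all genes rose and 4.69% fell. In KMS-11/Cfz, 0 rose and 0 fell, beside 1.63% and 1.94% of all genes. At an unadjusted p under 0.05, limma had 6 members in KMS-34/Cfz (21.7% of all genes) and 1 in KMS-11/Cfz (13.4% of all genes). These 6 were PMAIP1, BCL2L1, MCL1, BCL2L11, BCL2A1 and BCL2, with MCL1 below its parental level and the other 5 above. In the mean of both lines PMAIP1 alone of the 9 passed, at 0.43 ± 0.06 (adjusted p = 3.81e-04), beside 7.85% of all genes, and 4 of the 30 probe sets passed, beside 4.84% of all probe sets. These 4 were both of PMAIP1, 203685_at of BCL2 and 1555372_at of BCL2L11. The median change of the 9 genes was 0.21 in KMS-34/Cfz, where the median of all genes was -0.01, and -0.01 in KMS-11/Cfz, where the median of all genes was 0.00. In KMS-11/Cfz the 95% intervals, not adjusted for the number of genes, reached from -0.66 for BAX to 0.31 for BID, so small changes are not detectable with 3 arrays in a group.

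**Figure D1:**
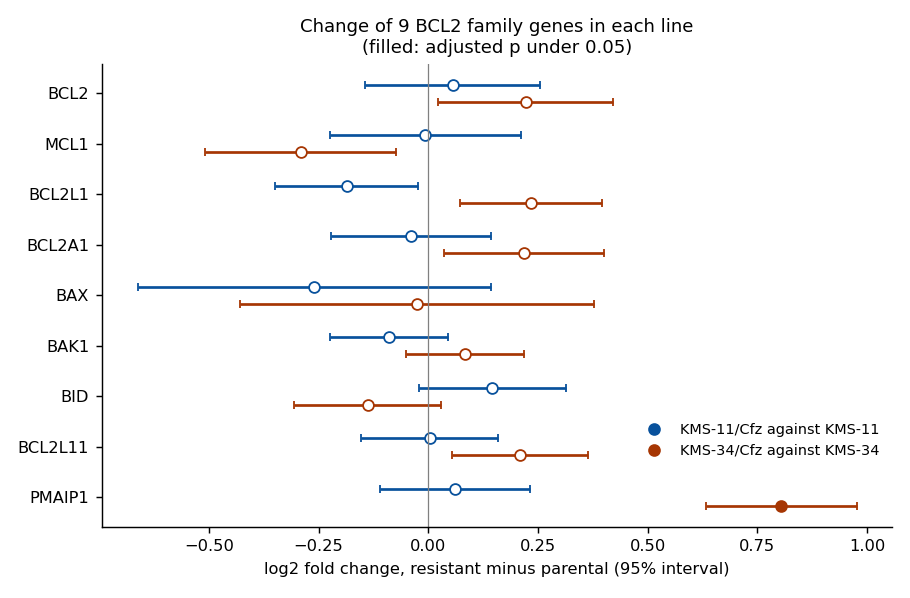
Log2 fold change of 9 BCL2 family genes, resistant minus parental cells, in the KMS-11 line (blue) and the KMS-34 line (brown), with 95% intervals from limma over 3 arrays in each group; filled points have an adjusted p under 0.05. Only PMAIP1 in KMS-34/Cfz, at 0.80, is filled.

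Of the BH3-only genes, PMAIP1 was the one with a clear change. Its protein, NOXA, binds MCL1 and BCL2A1 and is itself short-lived and cleared by the proteasome. In KMS-34/Cfz the arrays read 0.81, 0.90 and 0.70, against -0.07, 0.15 and -0.08 in KMS-34. All 3 resistant arrays lay above all 3 parental ones. PMAIP1 rose by 0.80 ± 0.08 (SE, n = 3 per group), or 1.75-fold, with an adjusted p of 3.06e-05 in limma. In KMS-11/Cfz the arrays read 0.07, 0.10 and 0.02, against -0.01, 0.10 and -0.09 in KMS-11, and the groups overlapped. The difference there was 0.06 ± 0.08 (adjusted p = 0.875). The changes in the 2 lines differed by 0.74 ± 0.11 in the interaction test of limma (adjusted p = 0.00151), a test that 2 of 9 members and 6.44% of all genes passed. Under cyclic loess scaling this difference was 0.22 and did not pass in limma (adjusted p = 0.513). The difference in KMS-11/Cfz was then 0.33 (adjusted p = 0.144). This scaling was run on centred values, which hold no signal level, so it may itself shift differences between the lines. It cannot decide whether the PMAIP1 changes differ. The rise in KMS-34/Cfz passed under each of the 21 alternatives that gave a value, at 0.56 to 0.92. In these bulk samples more RNA per cell and more cells that express the gene cannot be told apart.

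PMAIP1 also differed between the parental lines, a comparison that shares the KMS-34 arrays with the one above. Set against the KMS-11 mean, the KMS-34 arrays read 0.64, 0.87 and 0.63, and the KMS-34/Cfz arrays 1.52, 1.62 and 1.41. KMS-34 was higher than KMS-11 by 0.71 ± 0.08 (adjusted p = 4.3e-06 in limma), and by 1.24 under cyclic loess scaling (adjusted p = 2.34e-06). From low to high the order was thus KMS-11 and KMS-11/Cfz, which overlapped, then KMS-34, then KMS-34/Cfz, and neither KMS-34 culture overlapped with another group. Both PMAIP1 probe sets moved alike in KMS-34/Cfz, by 0.73 for 204285_s_at (adjusted p = 1.15e-04 in limma) and 0.88 for 204286_s_at (adjusted p = 3.98e-04).

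**Figure D2:**
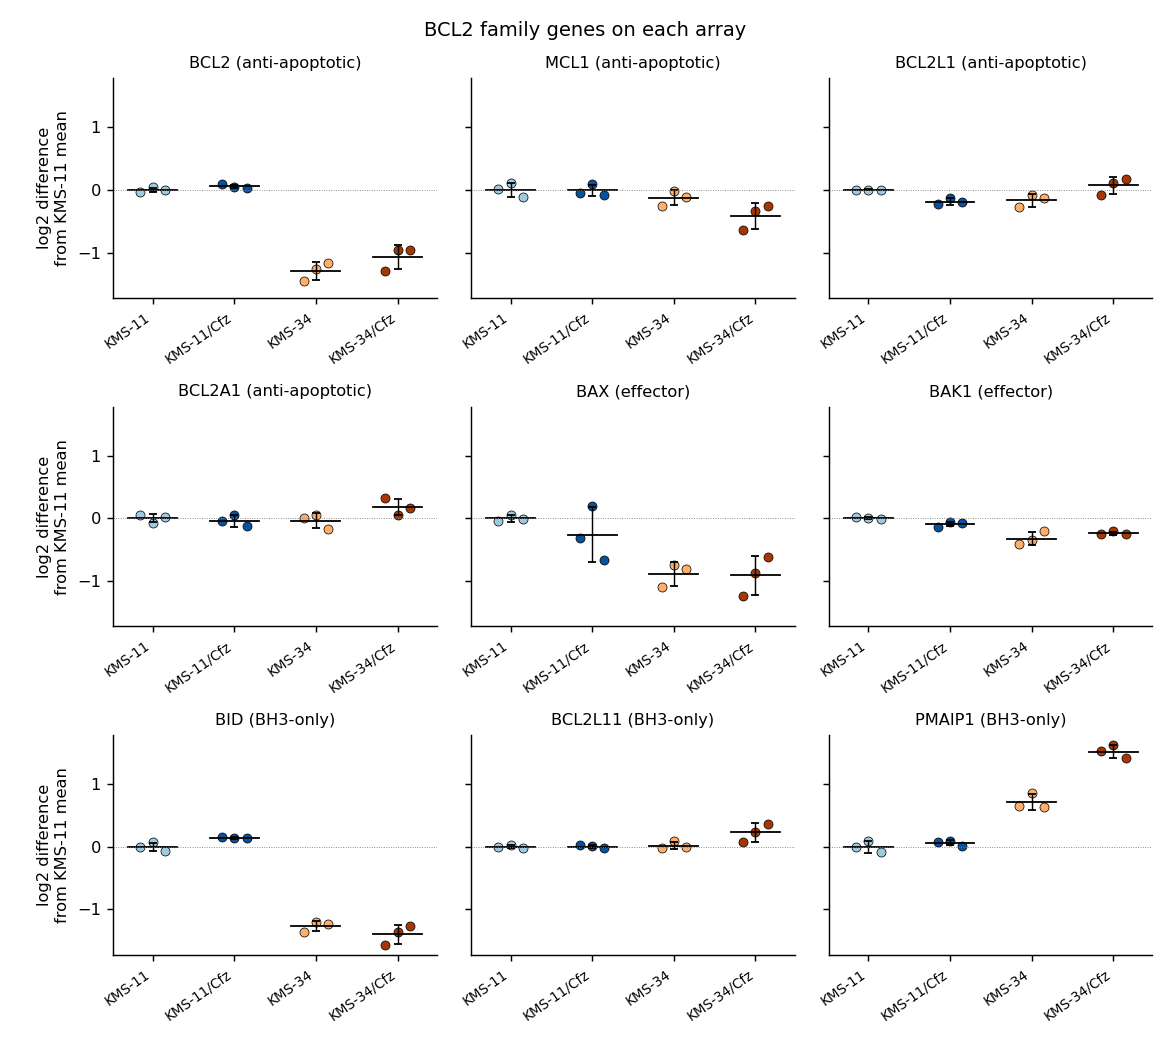
Log2 difference of each array from the KMS-11 mean for the 9 genes, in the 4 groups, with a bar at the mean of 3 arrays and whiskers of 1 SD. PMAIP1 climbs from KMS-34 (0.63 to 0.87) to KMS-34/Cfz (1.41 to 1.62), while BCL2, BAX and BID lie lower in both KMS-34 cultures than in KMS-11.

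The 3 genes whose values over the 12 arrays lay closest to those of PMAIP1 were ANKRD6, MYO10 and CSGALNACT1. Their root mean square differences from PMAIP1 were 0.106, 0.118 and 0.128, where PMAIP1 itself had an SD of 0.645 over the 12 arrays. In KMS-34/Cfz they changed by 0.70, 0.66 and 0.56. As they were picked for closeness over these same 12 arrays, a change like that of PMAIP1 follows from the choice.

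BCL2L11 encodes BIM, an activator of BAX and BAK1 that binds all anti-apoptotic members. Its arrays in KMS-34/Cfz read 0.06, 0.22 and 0.35, against -0.04, 0.07 and -0.03 in KMS-34, with overlap at the lowest resistant array, replicate 1. The difference of 0.21 ± 0.07 did not pass the test (adjusted p = 0.0928 in limma). Without KMS-34/Cfz replicate 1 it was 0.29 and passed (adjusted p = 0.00965). All 7 probe sets lay above 0 in KMS-34/Cfz, and 2 of them rose. These were 1555372_at, by 0.29 (adjusted p = 0.0239 in limma), and 1558143_a_at, by 0.35 (adjusted p = 0.0242). Neither passed with the KMS-34 line fitted alone (adjusted p = 0.187 and 0.155). The first was also lost without KMS-34/Cfz replicate 2 or any 1 KMS-34 array (adjusted p up to 0.112), and the second without replicate 1 or 3 of KMS-34 or replicate 3 of KMS-34/Cfz (adjusted p up to 0.0924). In KMS-11/Cfz, 4 of the 7 lay above 0, none passed, and the gene differed by 0.00 ± 0.07. Of these 4, 1555372_at lay at 0.23 (adjusted p = 0.152 in limma). The changes of this probe set in the 2 lines differed by 0.06 (adjusted p = 0.876). In the mean of both lines it rose by 0.26 (adjusted p = 0.00778), and it passed there in each of 19 alternatives.

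BID, which is cut by caspase 8 and then activates the effectors, differed in opposite directions in the lines without passing the test. KMS-11/Cfz read 0.16, 0.14 and 0.13, all above the KMS-11 arrays, which read -0.01, 0.07 and -0.06. KMS-34/Cfz read -0.30, -0.11 and -0.01, against -0.09, 0.06 and 0.03, with overlap. The differences were 0.15 ± 0.08 (adjusted p = 0.473) and -0.14 ± 0.08 (adjusted p = 0.349) in limma, and the interaction was -0.28 ± 0.11 (adjusted p = 0.169). Without KMS-34/Cfz replicate 1, the lowest array, the second was -0.06 (adjusted p = 0.637). Under cyclic loess scaling both passed, at 0.34 (adjusted p = 0.0433) and -0.36 (adjusted p = 0.0175).

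Among the anti-apoptotic genes, single probe sets changed in KMS-34/Cfz where the means over the probe sets of a gene did not. Of the 30 member probe sets, 6 rose and 2 fell in KMS-34/Cfz, which is 26.7%, beside 7.05% of all probe sets, of which 3.87% rose and 3.18% fell. In KMS-11/Cfz 0 of 30 passed in limma, beside 1.75% of all probe sets, and 4 had an unadjusted p under 0.05, beside 10.8%. Probe sets of 1 gene read the same samples and partly the same transcripts, so the 8 are not independent of each other. With the KMS-34 line fitted alone 3 of the 8 passed, 203685_at of BCL2 and both of PMAIP1.

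BCL2, the founding member and the target of venetoclax, shows how far its probe sets part. The probe set 203685_at read 0.49, 0.77 and 0.91 in KMS-34/Cfz, against -0.17, 0.17 and 0.01 in KMS-34. Every resistant array lay above every parental one, and the rise was 0.72 ± 0.11 (adjusted p = 9.68e-04 in limma, over all probe sets). The other 3 probe sets changed by 0.20, -0.07 and 0.03 and did not pass. Over all 4, BCL2 read 0.00, 0.33 and 0.34 in KMS-34/Cfz and -0.15, 0.03 and 0.12 in KMS-34, an overlap that comes from replicate 1 of KMS-34/Cfz. The difference of 0.22 ± 0.09 did not pass (adjusted p = 0.172), and without that array it was 0.33 (adjusted p = 0.0116). In KMS-11/Cfz the gene differed by 0.06 ± 0.09 (adjusted p = 0.916), and 203685_at read 0.09, 0.07 and 0.12 against 0.04, 0.00 and -0.04, a difference of 0.09 ± 0.11 (adjusted p = 0.882).

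The difference between the lines' changes of 203685_at was 0.63 (adjusted p = 0.0336 in limma), and it was lost under 11 of 19 alternatives. Its rise in KMS-34/Cfz started from a low base. Set against KMS-11, this probe set read -3.81, -3.46 and -3.63 in KMS-34 and -3.14, -2.86 and -2.72 in KMS-34/Cfz. The parental lines differed by -3.63 ± 0.11 (adjusted p = 2.77e-12 in limma), and the resistant arrays remained far below both KMS-11 cultures.

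MCL1, whose protein has a short life and is normally cleared by the proteasome, pointed the other way in KMS-34/Cfz. Its arrays read -0.52, -0.22 and -0.14, below all KMS-34 arrays at -0.13, 0.11 and 0.02. The difference of -0.29 ± 0.10 missed the threshold (adjusted p = 0.0931 in limma). It was -0.18 without replicate 1 of KMS-34/Cfz, the lowest array (adjusted p = 0.21), and -0.37 without replicate 3, when it passed (adjusted p = 0.0488). All 6 MCL1 probe sets lay below 0, and 2 fell, 200796_s_at by 0.46 (adjusted p = 0.014) and 200797_s_at by 0.31 (adjusted p = 0.0172). Both were lost without KMS-34 replicate 3, the first also without KMS-34 replicate 2 and the second without KMS-34/Cfz replicate 2 (adjusted p up to 0.0571 and 0.0651). In KMS-11/Cfz the arrays read -0.04, 0.10 and -0.08 against 0.01, 0.10 and -0.11 in KMS-11, and the difference was -0.01 ± 0.10 (adjusted p = 0.994).

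BCL2L1, which encodes BCL-XL, differed in opposite directions in the lines as the mean of its 4 probe sets. In KMS-11/Cfz it read -0.23, -0.13 and -0.19, below all KMS-11 arrays, which lay within 0.01 of their mean. In KMS-34/Cfz it read 0.08, 0.28 and 0.34, above all KMS-34 arrays at -0.12, 0.08 and 0.04, although replicate 1 exceeded the highest of them by less than 0.01. The differences of -0.19 ± 0.08 (adjusted p = 0.27) and 0.23 ± 0.08 (adjusted p = 0.0699) did not pass in limma. The difference between them did, at 0.42 ± 0.11 (adjusted p = 0.033), with 2 of its 4 probe sets. Over all members 5 of 30 probe sets passed the interaction, beside 3.8% of all probe sets. That call is close to the threshold, since it was lost when any 1 of 10 arrays was left out, all but KMS-34/Cfz replicate 1 and KMS-34 replicate 2, with adjusted p-values up to 0.0905. Without KMS-34/Cfz replicate 1 the rise in KMS-34/Cfz was 0.31 (adjusted p = 0.00978). All 4 BCL2L1 probe sets lay above 0 in KMS-34/Cfz. Of them 212312_at rose, by 0.28 (adjusted p = 0.0365 in limma), a call lost in 14 of 20 alternatives. In KMS-11/Cfz 3 lay below 0, while 231228_at lay at 0.10 (adjusted p = 0.758), with an interaction of -0.05 (adjusted p = 0.91).

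BCL2A1, a target of NF-kB and a binding partner of NOXA, was read by 1 probe set. It read 0.36, 0.10 and 0.20 in KMS-34/Cfz and 0.04, 0.10 and -0.14 in KMS-34, and the lowest resistant value equalled the highest parental one. KMS-11 replicate 1 held this same centred value, to the last digit given. As no signal level can be read, it cannot be told whether this probe set reads above background. The difference in KMS-34/Cfz was 0.22 ± 0.08 (adjusted p = 0.137 in limma). Without KMS-34/Cfz replicate 1, the highest array, it was 0.15 and did not pass. In KMS-11/Cfz it was -0.04 ± 0.08 (adjusted p = 0.937).

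The effectors showed no change that passed. BAX read -0.32, 0.20 and -0.66 in KMS-11/Cfz, where the KMS-11 arrays read -0.05, 0.05 and 0.00. The spread among these 3 resistant arrays was the widest of any member in any group, with an SD of 0.432, and the difference of -0.26 ± 0.19 lay within it (adjusted p = 0.669 in limma). Without single arrays it ranged from -0.49 to -0.06. In KMS-34/Cfz, BAX differed by -0.03 ± 0.19 (adjusted p = 0.972) and had no settled sign, since it was 0.14 when replicate 1 of KMS-34/Cfz was left out (adjusted p = 0.68) and lay above 0 in 6 of 21 alternatives. BAK1 differed by -0.09 ± 0.06 in KMS-11/Cfz (adjusted p = 0.645), where its arrays did not overlap, and by 0.08 ± 0.06 in KMS-34/Cfz (adjusted p = 0.521). Groups that did not overlap, in either direction, were found for 3 of 9 members in each line, BCL2L1, BAK1 and BID in KMS-11/Cfz and PMAIP1, BCL2L1 and MCL1 in KMS-34/Cfz. Over all genes the arrays were higher without overlap for 13.1% and lower for 13.7% in KMS-11/Cfz, and for 10.2% and 10.5% in KMS-34/Cfz.

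**Figure D3:**
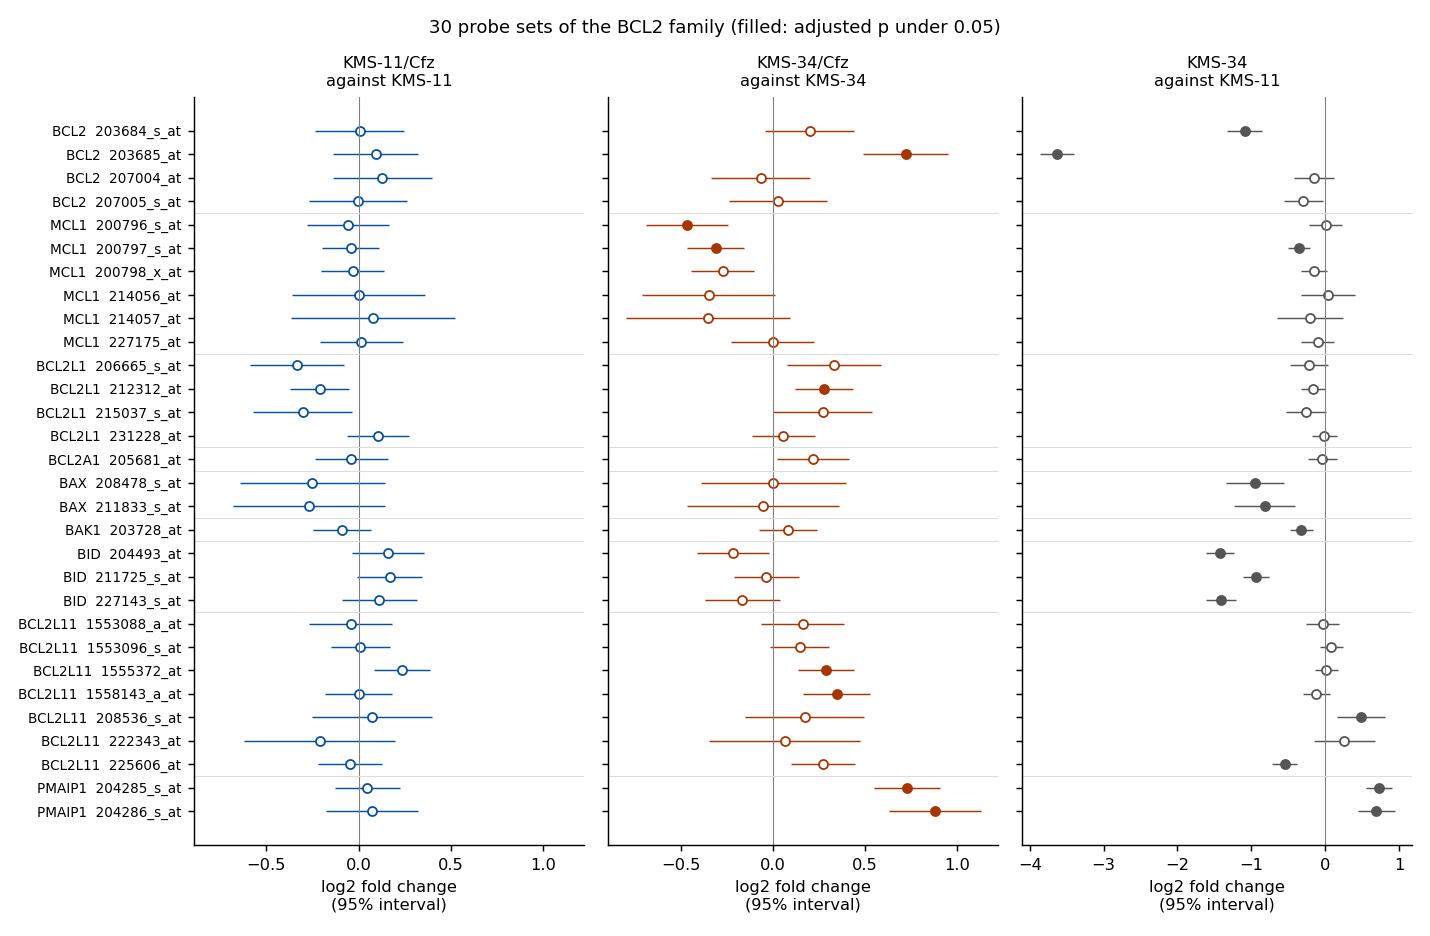
Log2 fold change with 95% intervals for the 30 probe sets in KMS-11/Cfz against KMS-11, KMS-34/Cfz against KMS-34 and KMS-34 against KMS-11, the last on a wider axis; filled points have an adjusted p under 0.05 over all probe sets. In KMS-34/Cfz the filled points are 6 above 0 (BCL2, BCL2L1, BCL2L11 and PMAIP1) and 2 below 0 (MCL1), and BCL2 203685_at lies at -3.63 in the comparison of the parental lines.

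The parental lines differed from each other in several members. KMS-34 held less RNA of BCL2, BAX, BAK1 and BID than KMS-11 and more of PMAIP1. These 5 of 9 members passed the test, 55.6%, beside 42.1% of all genes, of which 21.6% were higher and 20.5% lower. Of the 30 probe sets 3 were higher and 10 lower, 43.3%, beside 34.8% of all probe sets. BCL2 differed by -1.29 ± 0.09 (adjusted p = 4.53e-08 in limma), or 0.408-fold, as the mean of 4 probe sets that parted widely. Of these, 203685_at (-3.63, adjusted p = 2.77e-12) and 203684_s_at (-1.09, adjusted p = 1.84e-06) passed. The others, 207005_s_at (-0.29, adjusted p = 0.0851) and 207004_at (-0.16, adjusted p = 0.412), did not. BID differed by -1.26 ± 0.08 (adjusted p = 9.64e-09), and all 3 of its probe sets passed. BAX differed by -0.89 ± 0.19 (adjusted p = 0.00132), with both probe sets, and BAK1 by -0.32 ± 0.06 (adjusted p = 6.46e-04). For each of these 4 genes and for BCL2L1 the KMS-34 arrays lay below all KMS-11 arrays, and for PMAIP1 above them, where 24% of all genes were lower and 26.1% higher without overlap. MCL1 (-0.13 ± 0.10, adjusted p = 0.372), BCL2L1 (-0.16 ± 0.08, adjusted p = 0.105) and BCL2A1 (-0.04 ± 0.08, adjusted p = 0.788) did not pass. BCL2L11 stood at 0.02 ± 0.07 (adjusted p = 0.871), but its probe sets parted, with 208536_s_at at 0.49 (adjusted p = 0.0203, lost without KMS-11 replicate 1 or 3 or KMS-34 replicate 2, up to 0.0928) and 225606_at at -0.55 (adjusted p = 6.62e-05). In the resistant culture the order was the same, as the KMS-34/Cfz arrays of BCL2, BAX, BAK1 and BID also lay below all KMS-11 arrays.

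The genome around the members was described by the 10 nearest measured genes on each side in the RefSeq gene order of GRCh38. PMAIP1 and BCL2 lie on chromosome 18 with 8 measured genes between them. Of 28 genes from the tenth before PMAIP1 to the tenth after BCL2, 6 rose and 0 fell in KMS-34/Cfz, which is 21.4% risen, beside 5.4% of all genes, and 0 rose and 1 fell in KMS-11/Cfz. In the parental comparison, which shares the KMS-34 arrays, 1 was higher and 6 lower in KMS-34 than in KMS-11, beside 21.6% and 20.5% of all genes, and 5 of these 6 lower genes were among those that rose in KMS-34/Cfz. The pairs of genes directly beside BCL2 were among the 6. ZCCHC2 rose by 0.37, PHLPP1 by 0.36, KDSR by 0.44 and VPS4B by 0.24, with adjusted p-values of 0.00488, 0.00497, 0.00215 and 0.0414 in limma. The other 2, MALT1 (0.24, adjusted p = 0.032) and ZNF532 (0.26, adjusted p = 0.0183), lie before PMAIP1. The neighbours next to PMAIP1 itself did not pass, CCBE1 at 0.11 and MC4R at -0.02. PMAIP1 at 0.80 stood above all 28. Without KMS-34 replicate 3, 3 of the 20 neighbours of PMAIP1 passed in KMS-34/Cfz, in place of 5. Over the 22 alternatives 2 to 7 of the neighbours of PMAIP1 and 2 to 8 of those of BCL2 passed. With the KMS-34 line fitted alone these counts were 2 and 3. These neighbours were named after their values had been seen.

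Around MCL1 on chromosome 1, 7 of 20 neighbours fell and 1 rose in KMS-34/Cfz, which is 40%, beside 10.1% of all genes. Their median was -0.20. MRPS21 fell by 0.77 and PRPF3 by 0.45, and ENSA and GOLPH3L, which follow directly after MCL1, fell by 0.32 and 0.36. In KMS-11/Cfz 0 of the 20 rose and 1 fell, beside 1.63% and 1.94% of all genes. In the parental comparison 14 of the 20 were lower in KMS-34 than in KMS-11, beside 20.5% of all genes. The median of the 20 was then -0.40, where that of all genes was 0.02. The parental comparison shares the KMS-34 arrays with that of KMS-34/Cfz. Without KMS-34 replicate 2 or replicate 3, 5 of the 20 passed in KMS-34/Cfz, all of them fallen. Over the 22 alternatives the count there ran from 3, with the KMS-34 line fitted alone, to 15, with array weights. Around the other 6 members between 1 and 3 of 20 neighbours passed in KMS-34/Cfz. Copy number was not measured in these files, and its part in these values was not tested.

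**Figure D4:**
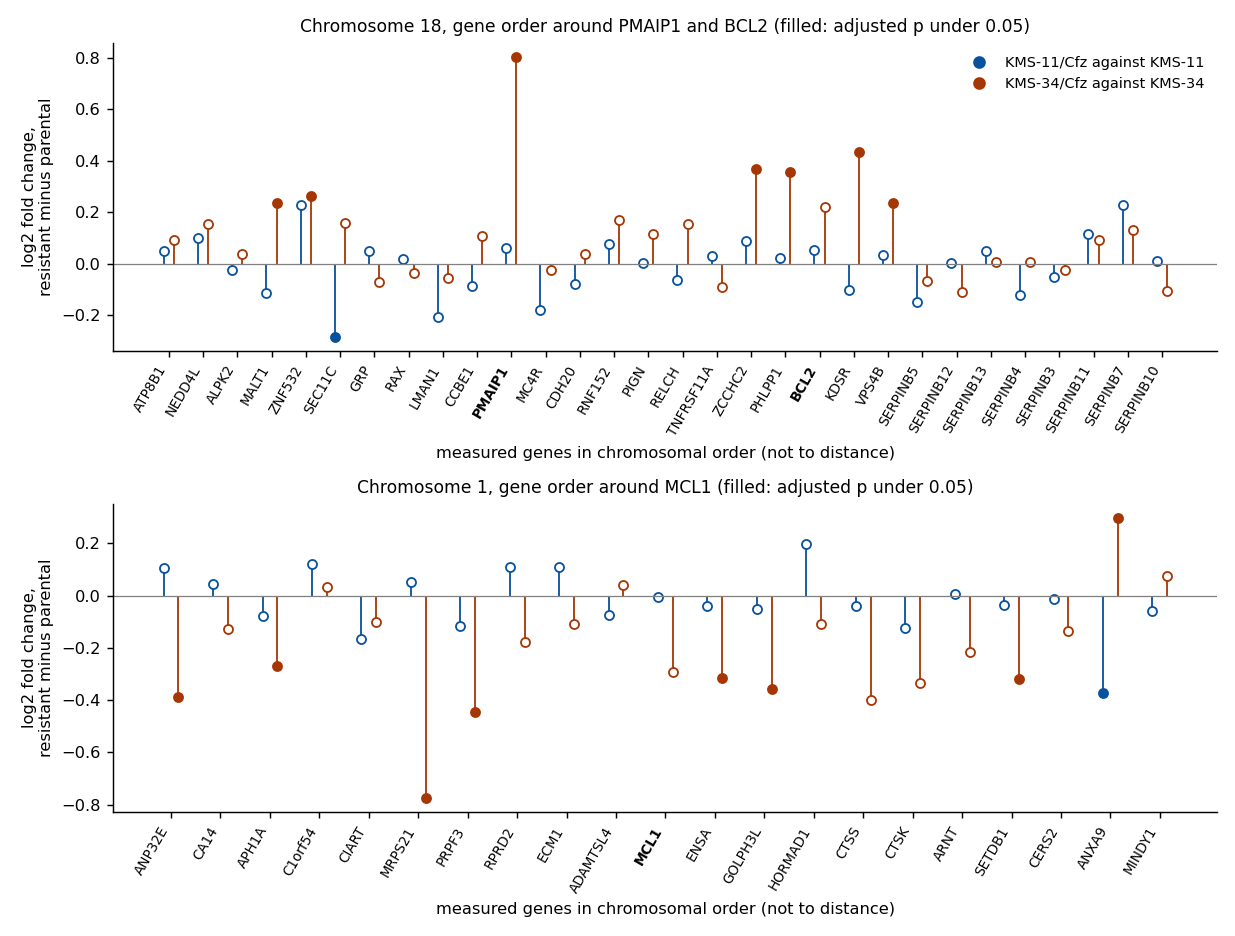
Log2 fold change, resistant minus parental, of measured genes in chromosomal order around PMAIP1 and BCL2 (top) and around MCL1 (bottom), for KMS-11/Cfz (blue) and KMS-34/Cfz (brown); filled points have an adjusted p under 0.05, and places are in order, not to distance. PMAIP1, the 4 genes beside BCL2, MALT1 and ZNF532 are filled above 0 in KMS-34/Cfz, and 7 neighbours of MCL1 are filled below 0.

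Beyond the 10 members, 88 genes of 11 lists cover the rest of the family and the death machinery, and 82 of them have a value. In KMS-34/Cfz 8 rose and 9 fell, 20.7%, beside 10.1% of all genes, and their median was 0.02. In KMS-11/Cfz 1 rose and 2 fell, 3.66%, beside 3.57% of all genes. The remaining 6 were not analysed here.

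Of 4 other BH3-only genes (BAD, BIK, BMF and HRK), BMF, a BH3-only protein tied to the cytoskeleton, rose in KMS-34/Cfz by 0.40 (adjusted p = 0.00779 in limma). The other 3 lay below 0 and did not pass. The anti-apoptotic BCL2L2 and BCL2L10 and the effector-like BOK did not pass in either line. Of 5 mitophagy and autophagy genes with a BH3 motif or a like role, FUNDC1, a mitophagy receptor, rose by 0.33 in KMS-34/Cfz (adjusted p = 0.0364). Of 10 less settled relatives and partners, BAG1, a co-chaperone that binds BCL2, fell by 0.29 (adjusted p = 0.0179).

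Downstream of the mitochondria, 2 of 9 apoptosome and caspase genes rose and 1 fell in KMS-34/Cfz. CASP1, an inflammatory caspase rather than an apoptotic one, rose by 0.74 (adjusted p = 2.48e-04 in limma), and the initiator CASP2 by 0.27 (adjusted p = 0.0467). CASP6, an executioner, fell by 0.34 (adjusted p = 0.00868). Of 8 mitochondrial partners, VDAC2, a channel that holds BAK1 at the membrane, fell by 0.27 (adjusted p = 0.0125). None of 9 IAP genes and antagonists passed in KMS-34/Cfz, and XAF1, an antagonist of XIAP, fell by 0.28 in KMS-11/Cfz (adjusted p = 0.0461). Of 11 death receptor genes, TNFSF10, the ligand TRAIL, rose by 0.50 in KMS-34/Cfz (adjusted p = 0.00163).

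The genes that control turnover of MCL1, BIM and NOXA proteins moved in both directions in KMS-34/Cfz, with 2 of 9 risen and 2 fallen. DUSP6, a phosphatase that switches off ERK, rose by 0.88 (adjusted p = 9.1e-05 in limma) and RPS6KA1, a kinase below ERK, by 0.57 (adjusted p = 7.65e-04). FBXW7, a ubiquitin ligase subunit that marks MCL1, fell by 0.47 (adjusted p = 0.00215), and USP13, a deubiquitinase that acts on MCL1, by 0.20 (adjusted p = 0.0445). In KMS-11/Cfz DUSP6 fell by 0.58 (adjusted p = 0.00481). The DUSP6 changes of the lines differed by 1.46 (adjusted p = 4.17e-05), and by 0.88 under cyclic loess scaling (adjusted p = 0.021).

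Of 14 transcription factor genes, 1 rose and 4 fell in KMS-34/Cfz. NFKB1, a subunit of NF-kB, fell by 0.38 (adjusted p = 0.00411 in limma), MYC by 0.33 (adjusted p = 0.00739), FOXO1 by 0.25 (adjusted p = 0.0149) and TP73 by 0.22 (adjusted p = 0.0286). KLF4 rose in both lines, by 0.30 in KMS-34/Cfz (adjusted p = 0.0193) and by 0.55 in KMS-11/Cfz (adjusted p = 8.76e-04). Of ATF3, ATF4 and DDIT3, factors of the stress response known to act on PMAIP1, none passed in either line. The lists were drawn up with earlier results of these data known, and KLF4 is a gene on which the study itself centres.

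The calls in these lists were of unequal strength. BMF, CASP1, CASP6, TNFSF10, DUSP6, RPS6KA1, FBXW7, NFKB1, MYC and FOXO1 passed in KMS-34/Cfz whichever of the 12 arrays was left out, as did DUSP6 and KLF4 in KMS-11/Cfz. With the KMS-34 line fitted alone, however, 11 of the calls in KMS-34/Cfz did not pass in limma. Among these were BMF (adjusted p = 0.053), CASP6 (adjusted p = 0.0786), MYC (adjusted p = 0.0813) and FOXO1 (adjusted p = 0.138). VDAC2 (adjusted p = 0.113), KLF4 (adjusted p = 0.139), BAG1 (adjusted p = 0.142) and FUNDC1 (adjusted p = 0.161) were lost as well. So were TP73 (adjusted p = 0.198), CASP2 (adjusted p = 0.208) and USP13 (adjusted p = 0.271). By the probe set of largest variance FBXW7 (-0.27, adjusted p = 0.148) and FOXO1 (-0.16, adjusted p = 0.44) did not pass. VDAC2 did not pass without KMS-34/Cfz replicate 2 (adjusted p = 0.0552 in limma), nor BAG1 without it or without KMS-34 replicate 2 (adjusted p up to 0.0674). KLF4 and TP73 in KMS-34/Cfz each failed without any 1 of KMS-34/Cfz replicates 2 and 3 and KMS-34 replicates 1 and 3, with adjusted p-values up to 0.0908 and 0.107. CASP2 was lost in 10 of the 12 omissions, FUNDC1 in 9, USP13 in 11 and XAF1 in KMS-11/Cfz in 9. Cyclic loess scaling ended the call of DUSP6 in KMS-11/Cfz (-0.24, adjusted p = 0.471). In KMS-34/Cfz it ended those of RPS6KA1 (0.35, adjusted p = 0.273) and CASP2 (0.18, adjusted p = 0.0626).

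**Figure D5:**
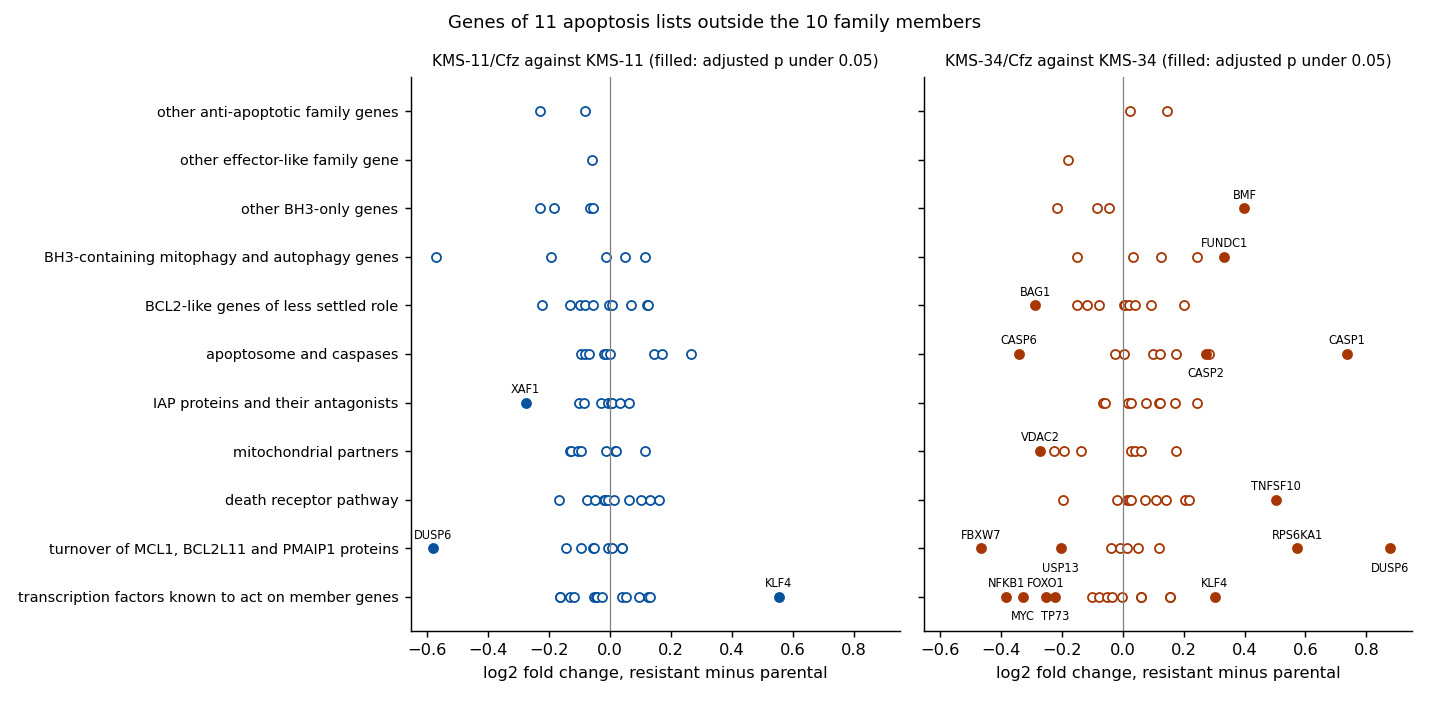
Log2 fold change, resistant minus parental, of the 82 measured genes in 11 apoptosis lists outside the 10 members, in the KMS-11 line (left) and the KMS-34 line (right); each point is 1 gene, filled and named where its adjusted p was under 0.05. The KMS-34 panel has 17 filled points, from FBXW7 at -0.47 to DUSP6 at 0.88, and the KMS-11 panel has 3.

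PMAIP1 and BMF were the BH3-only genes that rose in KMS-34/Cfz, and the 250 bases before their start sites are shown to let them be read side by side. The sequences are RefSeq promoters of GRCh38.p14, PMAIP1 at chr18:59899746-59899995 on the plus strand and BMF, from the upstream of its 2 listed start sites, at chr15:40108880-40109129 on the minus strand. Both run 5′ to 3′ along the gene, and capitals mark TGACG, the core of sites read by ATF and CREB factors, in either orientation.
PMAIP1: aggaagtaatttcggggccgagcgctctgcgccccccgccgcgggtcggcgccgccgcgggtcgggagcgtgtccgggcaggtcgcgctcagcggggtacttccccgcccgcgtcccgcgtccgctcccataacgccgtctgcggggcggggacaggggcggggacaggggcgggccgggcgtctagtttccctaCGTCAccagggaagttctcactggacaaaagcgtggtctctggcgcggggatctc
BMF: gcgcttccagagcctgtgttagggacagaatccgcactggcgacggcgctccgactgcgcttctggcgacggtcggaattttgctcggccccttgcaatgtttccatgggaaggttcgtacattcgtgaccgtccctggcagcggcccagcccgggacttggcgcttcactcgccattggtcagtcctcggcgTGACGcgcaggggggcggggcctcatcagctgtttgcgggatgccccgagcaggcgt

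The motif search covered 250 bases before and 50 bases after the start site. Each of these promoters holds TGACG once, at -55 from the start site in PMAIP1, on the opposite strand, and at -57 in BMF. The promoter of the other listed BMF start site, not shown, holds none. Over all 35116 RefSeq promoters of this length, 24.6% hold TGACG on either strand. Of the 9 members with a listed promoter, 4 hold it from at least 1 start site (PMAIP1, BCL2, BCL2L1 and BAX). BCL2L1 lacks it from its other start site. Of these genes only PMAIP1 rose in KMS-34/Cfz. Among the other BH3-only genes BAD holds it at -54 and, from its other start site, at -93, and HRK at -16, and neither rose in KMS-34/Cfz. The GC box GGGCGG is found 4 times in PMAIP1, 2 times in the BMF promoter shown and 0 times in the other BMF promoter. It is found in 45% of all promoters. CACCC, a box read by KLF factors, is found in neither gene, against 59.9% of all promoters and 5 of the 9 members. A member was counted if any of its start sites had a match, while the shares are of single promoters, so these are unlike units. A match is a description of letters, and no binding was measured here.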

How the data were processed

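RNA of the parental lines and of their resistant derivatives was measured on 12 arrays, 3 in each of the 4 groups. The deposited values are log2 signals that the authors normalized with RMA (version not given in the sources used here), centred for each probe set, since 99.99% of probe sets have 3 to 9 of their 12 values below 0. The method of centring is not given, and no filter on dim probe sets was possible. No columns of comparisons made by the authors were used. The number of arrays limits the precision.

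All 12 arrays entered 1 linear model with 4 group means with the lmFit, contrasts.fit and eBayes steps of limma (version 3.58.1, R version 4.3.3), for 54613 probe sets and for 19775 genes. A gene is the mean of all probe sets that name it alone. Of the probe sets, 41091 name 1 gene, 1801 several and 11721 none. Two-sided p-values were corrected (Benjamini-Hochberg) across all genes, or across all probe sets, and 0.05 was the threshold. The contrasts were resistant against parental cells in each line, their difference (the interaction), their mean, and KMS-34 against KMS-11. The fit was tested on simulated data.

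The members and lists were chosen with earlier results of these data known. Named are all members, up to 4 genes of each other list in each line past the threshold with the largest changes, and the 3 genes closest to a member that changed. TP73, the fifth transcription factor gene past the threshold in KMS-34/Cfz, was added after its values had been seen. Alternatives were cyclic loess, alignment of the array medians, array weights, a variance trend, a block for the replicate number, a fit of 1 line, the probe set of largest variance, probe sets ending in _at without a letter, a threshold of 0.01 and leaving out each array. Cyclic loess was run on the centred values. These hold no signal level, so its curves follow differences between arrays in place of signal strength. Calls that it ended or made, for members and list genes alike, carry this limit. The joint omission of 2 arrays was added after the data had been seen. Python 3.11.15, pandas 2.3.3 and matplotlib 3.10.9 made tables and figures.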

Additional observations from a re-analysis of the deposited data

Results flagged for a closer look

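The changes with resistance differed between the KMS-11 and KMS-34 lines in the interaction test of limma for several genes and probe sets, given here as the change in KMS-34/Cfz minus the change in KMS-11/Cfz on the log2 scale. PMAIP1 differed by 0.74 (adjusted p = 0.00151), with its probe sets 204285_s_at at 0.68 (adjusted p = 0.00481) and 204286_s_at at 0.81 (adjusted p = 0.0135). BCL2L1 differed by 0.42 (adjusted p = 0.033), with 212312_at at 0.49 (adjusted p = 0.0178) and 206665_s_at at 0.67 (adjusted p = 0.0418). For BCL2, 203685_at differed by 0.63 (adjusted p = 0.0336). Under cyclic loess scaling PMAIP1 (0.22, adjusted p = 0.513) and its probe sets (0.15 and 0.29, adjusted p = 0.752 and 0.519) did not pass. The differences of 203685_at and 206665_s_at were each lost in 11 of 19 alternatives, and that of 212312_at in 5. These 2 of 9 member genes and 5 of 30 member probe sets stand beside 6.44% of all genes and 3.8% of all probe sets.

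Outside the members, DUSP6 differed most, by 1.46 (adjusted p = 4.17e-05 in limma). CASP1 differed by 0.83 (adjusted p = 0.00222), RPS6KA1 by 0.72 (adjusted p = 0.00284), BMF by 0.46 (adjusted p = 0.0338) and XAF1 by 0.45 (adjusted p = 0.0161). In the other direction CASP6 differed by -0.51 (adjusted p = 0.00939), FBXW7 by -0.50 (adjusted p = 0.0173) and NFKB1 by -0.43 (adjusted p = 0.0224). Under cyclic loess scaling CASP1 (0.34, adjusted p = 0.192) and RPS6KA1 (0.12, adjusted p = 0.858) did not pass. The difference of BMF was lost in 9 of 21 alternatives (adjusted p up to 0.0981), that of NFKB1 in 6 (adjusted p up to 0.0675), that of FBXW7 in 2 (adjusted p up to 0.168) and that of XAF1 in 1, the threshold of 0.01. With 3 arrays in each group, single arrays were not tested as outliers.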

How the results depend on the processing

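Of 953 values of member genes under the alternatives, 909 kept their side of the threshold, 13 lost it, 31 gained it and 0 changed sign while called. For BCL2L1 the interaction was lost in 12 of 21 alternatives (adjusted p up to 0.241). Array weights, whose estimate stopped before it converged, raised the counts given for them below. The cause of these shifts was not tested. Nothing states whether the replicate numbers pair the samples, and the main fit took them as unpaired. In the KMS-11 line same-numbered arrays correlated at -0.025, 0.118 and 0.0245 in their deviations from the group means, in the KMS-34 line at 0.52, 0.344 and 0.0724, and 4 of 6 resistant arrays correlated best with their own number. With the replicate block, 2 member genes passed in KMS-34/Cfz, PMAIP1 and BCL2L1 (0.23, adjusted p = 0.0431 in limma).

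Counts are of genes or probe sets that passed. In KMS-34/Cfz, 1 member gene passed, and 2 did under cyclic loess, 5 with array weights, 2 with the probe set of largest variance, 0 of the 7 that have a probe set ending in _at without a letter (PMAIP1 has none), 4 without both replicate 1 arrays of the KMS-34 line, and 1 to 4 without single arrays. The 4 without KMS-34/Cfz replicate 1 were PMAIP1, BCL2, BCL2L1 and BCL2L11. Of member probe sets 8 passed, and 3 in the line alone, 14 with array weights, 3 at a threshold of 0.01 and 5 to 10 without single arrays. Of the list genes 17 passed, and 6 in the line alone, 35 with array weights, 9 at 0.01 and 10 to 21 without single arrays. In KMS-11/Cfz, 0 member genes passed, with 1 under cyclic loess (BID), 1 with array weights (BCL2L1) and 0 without any single array. Of member probe sets 0 passed, with 1 in the line alone, 3 with array weights, 1 in the joint omission and 0 to 1 without single arrays. Of the list genes 3 passed, with 8 in the line alone, 5 under cyclic loess, 10 with array weights, 1 with the _at probe sets, 5 in the joint omission and 2 to 5 without single arrays.

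In the interaction, 2 member genes passed, with 5 under array weights, 0 with the _at probe sets, 1 at 0.01 and 1 to 2 without single arrays, and 5 member probe sets, with 10 under array weights, 1 at 0.01 and 2 to 6 without single arrays. In the mean of both lines, 1 member gene passed, with 3 under array weights, 2 with the probe set of largest variance, 0 with the _at probe sets, 2 in the joint omission and 1 to 3 without single arrays, and 4 member probe sets, with 4 to 6. Between the parental lines 5 member genes passed, with 3 by the _at probe sets and 5 to 6 without single arrays, and 13 probe sets, with 12 to 15.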
